A study of Mus musculus with 24 samples.

Results

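Tight junctions seal the space between neighbouring epithelial or endothelial cells. The claudins form their strands, occludin and tricellulin (Marveld2) sit in or between the strands, junctional adhesion molecules lie beside them, and the zonula occludens proteins (such as Tjp1 and Tjp3), cingulin (Cgn) and paracingulin (Cgnl1) tie them to actin. In the uterus the luminal and glandular epithelium carries tight junctions, which change under progesterone around the time of implantation, and vascular endothelium carries its own set, led by Cldn5. The genes described here are the 36 protein-coding genes of that family among 56691 genes in the count table: every one whose symbol is Cldn and a number, plus genes of strand-associated proteins, scaffolds and polarity proteins, among them Tjp1, Tjp3, Ocln, Marveld2, Marveld3, Cgn, Cgnl1, F11r, Jam2, Jam3, Pard3, Pard6b and Lsr. They were chosen by symbol and not by their values, though with earlier results of these data known.

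The samples came from a surgical mouse model of endometriosis, the growth of uterine tissue outside the uterus, and RNA was sequenced in 6 groups of 4 libraries. Sham-operated uterus (sham), uterus of mice with lesions (eutopic) and the lesions themselves (ectopic) were taken on pregnancy day 3.5, at 1 month and at 3 months after surgery done at 8 weeks of age, so that mice at 3 months were also older. Labels name all 1-month mice and the 3-month sham mice as fertile and the 3-month mice with lesions as subfertile, on a mixed C57BL/6 and SV129 background. The genotype label is Pgrcre/+Rosa26mTmG/+ for lesions and Rosa26mTmG/+ for sham and eutopic uterus, while the series text gives the Cre genotype for the mice with endometriosis. Pgrcre expresses Cre recombinase from the progesterone receptor gene, and Rosa26mTmG is a membrane fluorescent reporter. By the labels, genotype and lesion cannot be told apart. The labels do not say from which animal each library came, and p-values therefore measure only the spread between these samples, which may be technical. Total counts per library were 45133642 to 59407134. Levels are given as CPM, a gene's share of its library's counts on the usual per-million scale, after scaling by edgeR's trimmed mean of M-values, and a gene was called changed at an adjusted p under 0.05 in edgeR's quasi-likelihood test.

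Some libraries stood apart. Summed levels of 10 epithelial markers (such as Epcam, Krt8 and Krt18) were 717 to 1324 CPM in 15 of the 16 uterine libraries and 865 to 1088 CPM in the 4 lesions at 1 month, but 152 and 59.4 CPM in 3-month lesion libraries 1 and 2, against 1191 and 908 CPM in 3-month lesion libraries 3 and 4. No epithelial marker was at 0 in any library. The 3-month lesion library 1 held 20800 CPM of 6 ovary steroid cell markers, which summed to at most 17.05 CPM in uterine libraries, library 2 held 39311 CPM of 6 skeletal muscle markers, and libraries 3 and 4 held 12095 and 6434 CPM of the latter (uterus, 85.5 to 315 CPM). In 1-month lesion library 2, 7 markers of liver and pancreas summed to 59546 CPM. Among uterine libraries, 3-month sham library 4 had the highest epithelial sum, 2327 CPM. These are bulk samples, so fewer cells of a type and less RNA per cell cannot be told apart.

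Of the 36 genes, 29 had enough counts to be tested over all libraries and 28 over the uterine libraries alone. Cldn24 and Cldn17 had no count in any library. Cldn14, Cldn13, Cldn16 and Cldn19 had 4, 10, 47 and 118 counts over all 24 libraries. Cldn18, a claudin known from stomach and lung epithelium, had 1666 counts, of which 1654 lay in 3-month lesion library 1 and 12 in library 2. Its 3-month lesion level was at least 595-fold higher than that of eutopic uterus, where no count was seen, taking 3 counts over the eutopic group as the floor. Cldn19, a claudin of kidney and Schwann cells, had 71 counts in 3-month lesions and 3 in eutopic uterus, a ratio of 25.4 with a 95% counting interval of 8.33 to 126. That interval leaves out the spread between lesion libraries 1 to 4, which had 1, 35, 15 and 20 counts. Cldn19 was not tested in the main fit. It was called at 3 months in some alternatives that tested it, among them the fit with no filter on low counts.

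**Figure D1:**
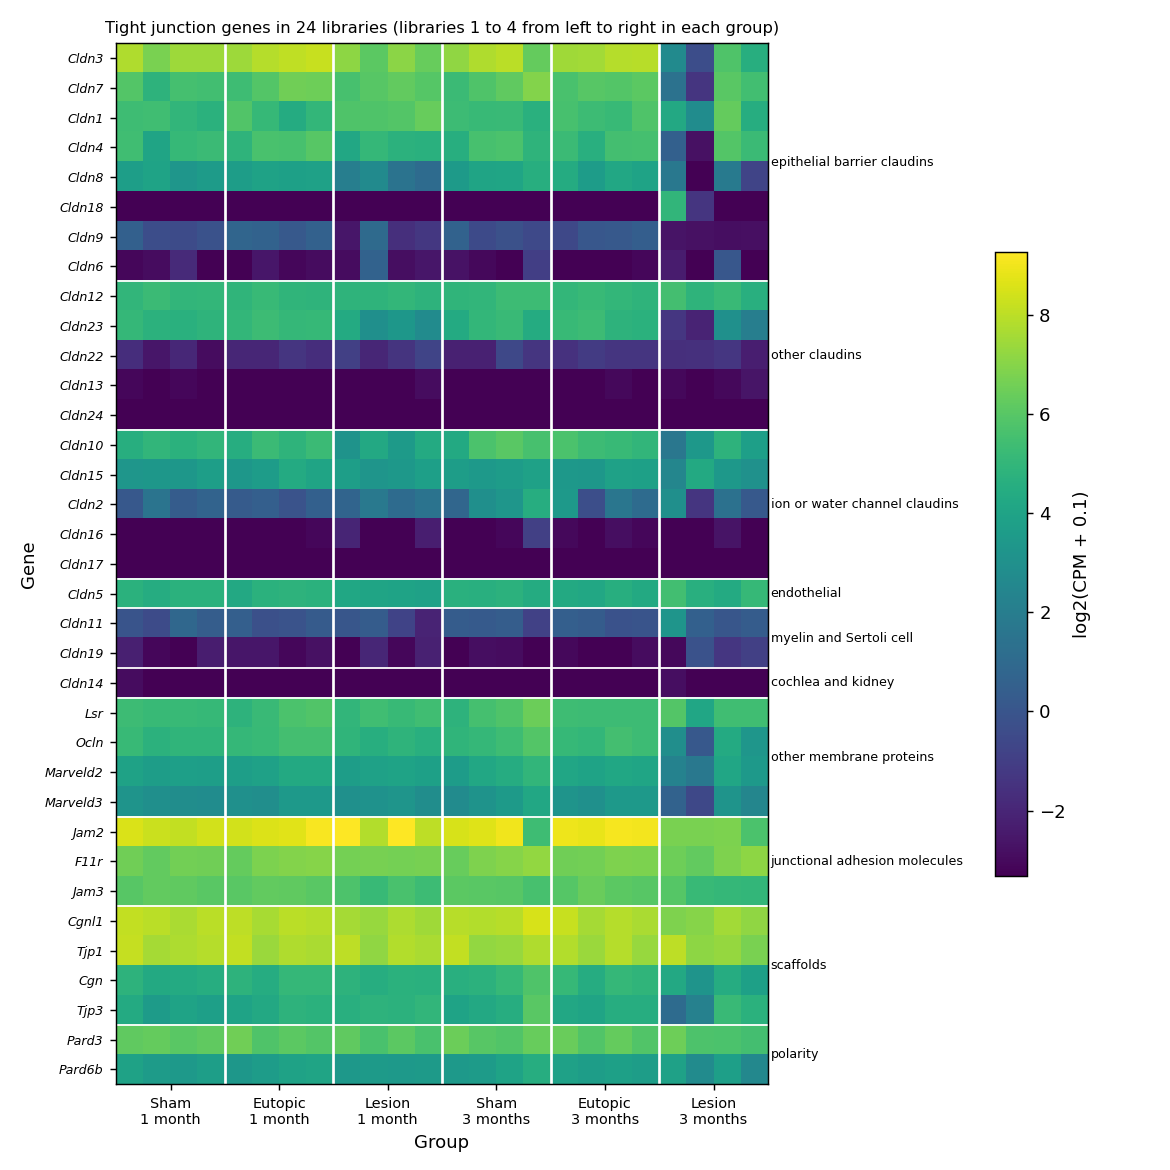
Level of 35 of the 36 genes (rows, grouped by role) in each of the 24 libraries (columns, grouped by tissue and time), as log2(CPM + 0.1), with yellow high and dark purple low. The 3-month lesion libraries 1 and 2 are dark for Cldn3, Cldn7, Cldn4, Cldn23 and Ocln, while F11r, Cldn12 and Tjp1 keep much the same shade across groups.

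Per kilobase of exon, the scale on which genes can be compared, Cldn3 was the most abundant of these genes in sham, eutopic and 1-month lesion groups, at 133 ± 36.7 CPM per kb in sham at 1 month and 193 ± 44.3 in eutopic uterus at 1 month (SD, n = 4). Jam2 came second in each of those groups, at 54.1 ± 7.1 CPM per kb in 1-month sham uterus, with F11r after it, at 33.5 ± 3.1. In 1-month lesions Cldn3 and Jam2 lay within their spread, at 84.2 ± 28.7 and 71.0 ± 35.7 CPM per kb. In the 3-month lesions the order differed: F11r was first at 39.5 ± 10.5, Cldn5 second at 21.9 ± 7.4, Cldn3 sixth at 17.3 ± 19.8 and Jam2 seventh at 15.6 ± 4.7 CPM per kb. From the second to the seventh place of that order, neighbouring genes lay within their spread.

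Among the claudins that the results turn on, Cldn3 and Cldn4 are neighbours, with starts 39.3 kb apart on chromosome 5, and Cldn5 is the main claudin of vascular endothelium. Their upstream sequences are shown because Cldn3 and Cldn4 separated in 3-month lesion libraries 3 and 4. Each is the 250 bases before the annotated start, from RefSeq on GRCm38.p6 (the counts were made on mm39), written 5′ to 3′ on the gene's strand, with capitals marking GGGCGG (the GC box bound by Sp factors) or CACCTG (the E-box bound by Snai and Zeb repressors) on either strand. The Cldn3 window is chr5:134985964-134986213, plus strand, the Cldn4 window is chr5:134946935-134947184, minus strand, and the Cldn5 window is chr16:18776597-18776846, plus strand.
Cldn3: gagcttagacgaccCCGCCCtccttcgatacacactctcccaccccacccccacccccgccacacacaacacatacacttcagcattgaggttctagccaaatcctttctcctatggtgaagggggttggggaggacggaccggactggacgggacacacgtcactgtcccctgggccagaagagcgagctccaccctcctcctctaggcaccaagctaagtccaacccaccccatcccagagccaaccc
Cldn4: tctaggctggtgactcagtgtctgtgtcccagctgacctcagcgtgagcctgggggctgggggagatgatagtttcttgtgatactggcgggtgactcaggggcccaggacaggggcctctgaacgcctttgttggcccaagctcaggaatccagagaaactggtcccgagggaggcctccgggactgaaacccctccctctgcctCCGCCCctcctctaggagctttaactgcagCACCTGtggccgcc
Cldn5: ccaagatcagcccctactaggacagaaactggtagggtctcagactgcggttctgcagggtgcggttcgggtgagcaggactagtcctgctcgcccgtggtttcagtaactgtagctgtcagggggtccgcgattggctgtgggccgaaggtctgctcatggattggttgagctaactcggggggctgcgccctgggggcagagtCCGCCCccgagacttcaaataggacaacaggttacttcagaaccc
The GC box stood once in each, on the opposite strand: 236 bases before the start in Cldn3, 44 in Cldn4 and 45 in Cldn5. The CACCTG E-box stood once, 14 bases before the start of Cldn4, and not in the other windows shown. RefSeq windows were at hand for 28 of the 36 genes (40 windows). GGGCGG was in 23 of these 40 windows (57.5%) against 32.7% of all 32851 windows of the same length, and CACCTG in 11 (27.5%) against 17.2%. The grainyhead motif AACCGGTT, of the epithelial factors Grhl1 to Grhl3, was in none of the 40 and in 0.116% of all windows. A match describes letters in the window only.

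The first comparison asked whether the uterus of mice with lesions differed from sham uterus. At 1 month none of the 28 tested genes was called by edgeR (0%, against 0.00943% of all 21208 genes tested), and 1 gene, Cldn15, had an unadjusted p under 0.05; DESeq2 and limma voom called none. Log2 fold changes were positive for 21 of the 28, with a median of 0.26, while the median over all genes was -0.00052. Cldn15, a cation channel claudin, had a log2 fold change of 0.47 ± 0.20 (SE) with adjusted p = 0.876 in edgeR. Cldn7, a barrier claudin of the lateral membrane, stood at 0.66 ± 0.32 and Ocln at 0.38 ± 0.19, both with the same adjusted p in edgeR. Among the others, Cldn3 stood at 0.54, Cldn4 at 0.55, Cldn10 at 0.20, Cldn1 at 0.04, Cldn5 at -0.01 and Tjp1 at -0.11. The 10 epithelial markers had a median log2 fold change of 0.28 in the same comparison with none called, and their part in these values was not tested.

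At 3 months, when mice with lesions were labelled subfertile, none of the 28 was called either (0%, against 0% of all genes), with 1 gene, Cldn5, at an unadjusted p under 0.05; DESeq2 and limma voom again called none. The median was -0.12, and 9 of 28 were positive; the 10 epithelial markers had a median of -0.36 with none called. Cldn5 stood at -0.26 ± 0.12 (adjusted p = 0.992 in edgeR), Cldn2, the paracellular cation and water channel, at -1.35 ± 0.71, and Tjp3, the scaffold found mainly in epithelia, at -0.62 ± 0.36. Cldn2 varied widely between libraries, at 3.16 ± 2.71 CPM per kb in sham and 1.24 ± 1.36 in eutopic uterus (SD). Its log2 fold change ranged from -2.44 to -0.61 over 14 alternatives. Cldn1, Cldn3 and Cldn4 stood at 0.39, 0.28 and 0.02, and Cldn7, Cldn10, Ocln and Tjp1 at -0.27, -0.25, -0.12 and -0.02. A single library bears on several of these values. The 3-month sham library 4 had 65.8 CPM of Tjp3, where the other sham libraries had 15.8 to 22.8, and 40.6 CPM of Jam2, where the others had 364 to 515. Without it, Tjp3, Cldn7 and Ocln stood at 0.07, 0.12 and 0.12, and the count of called genes stayed at 0.

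The next comparison set lesions against the uterus of mice that bear lesions. At 1 month, 2 of 29 tested genes fell and none rose (6.90% called, against 20.7% of all 22249 genes; for lower calls 8.76% of all genes). Jam3, an adhesion molecule of endothelium, epithelium and other cells, fell from 65.3, 76.0, 73.4 and 65.95 CPM in eutopic libraries to 53.4, 35.97, 50.6 and 39.5 CPM in lesions. All 4 lesions lay below all 4 uteri, with a log2 fold change of -0.63 ± 0.17 (SE) and adjusted p = 0.0157 in edgeR's quasi-likelihood test. Cldn5 fell from 19.7, 26.5, 28.7 and 26.1 CPM to 18.1, 16.6, 15.8 and 14.5 CPM, again without overlap (-0.62 ± 0.18, adjusted p = 0.0185 in edgeR). Of 8 endothelial markers 4 fell and none rose in the same comparison, and Esam, an endothelial adhesion molecule, fell by 0.88 ± 0.19 on the log2 scale; their part in the Cldn5 value was not tested. Both calls rest on few libraries: without 1-month lesion library 4 no member was called, with Jam3 at adjusted p = 0.053 and Cldn5 at 0.059, without lesion library 2 Jam3 stood at 0.056, and without eutopic library 3 Cldn5 stood at 0.057 in edgeR.

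Several epithelial claudins were lower in every 1-month lesion without passing the threshold. Cldn8, a barrier claudin known from distal nephron and gut, stood at 12.9, 15.1, 14.2 and 14.7 CPM in eutopic uterus and at 4.12, 6.33, 2.703 and 2.03 CPM in lesions. The groups did not overlap, and its log2 fold change was -1.89 ± 0.68 (adjusted p = 0.0532 in edgeR). Cldn23, a claudin of gut and other epithelia, stood at 32.8, 39.6, 33.5 and 34.3 CPM in eutopic uterus and at 21.1, 7.53, 10.2 and 6.54 CPM in lesions (-1.62 ± 0.67, adjusted p = 0.0874). Cldn3, a major barrier claudin of simple epithelia, stood at 171, 231, 269.9 and 299.8 CPM against 139, 69.1, 135 and 81.1 CPM (-1.19 ± 0.66, adjusted p = 0.207 in edgeR). Cldn10, a claudin with channel-forming isoforms, stood at 23.3, 38.5, 29.4 and 37.9 CPM against 8.88, 19.6, 11.5 and 20.7 CPM (-1.07 ± 0.44, adjusted p = 0.0894 in edgeR). For Cldn8, Cldn23, Cldn3 and Cldn10 each of the 4 lesions lay below each of the 4 uteri, and so it was for Ocln, at 23.9 to 30.6 CPM in lesions and 33.3 to 45.96 CPM in uterus (-0.55 ± 0.45, adjusted p = 0.401 in edgeR). The share of all genes without overlap was not counted. In this comparison 7845 of 22249 genes had an unadjusted p under 0.05 in edgeR, which is a different measure. Whether a lack of overlap sets these members apart therefore cannot be said.

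Other epithelial members overlapped between the groups at 1 month. Cldn7 stood at 41.4, 59.0, 92.4 and 90.2 CPM in eutopic uterus and 49.5, 63.5, 76.2 and 61.6 CPM in lesions. Cldn4, a claudin of secretory and simple epithelia, stood at 29.0, 51.0, 49.4 and 63.2 CPM against 18.7, 32.9, 27.1 and 25.1 CPM, where the lowest eutopic library lay below the highest lesion. Cldn1, a barrier claudin known from epidermis, was 58.1, 34.4, 21.4 and 32.4 CPM in eutopic uterus and 56.4, 56.8, 60.8 and 80.3 CPM in lesions (0.81 ± 0.45, adjusted p = 0.20 in edgeR).

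The number of genes called at 1 month depended on which libraries set the spread. When the fit held the 8 compared libraries alone, 11 of 28 were called, 9 lower and 2 higher, against 33.4% of all genes. The lower ones included Cldn3, Cldn4, Cldn8, Cldn10 and Cldn23, and the higher ones were Cldn1 and Cldn2. Limma voom with sample quality weights called 11 of 29, 10 lower and Cldn1 higher, against 45% of all genes. Without 1-month lesion library 2 and 3-month lesion libraries 1 and 2, 8 of 30 were called, all lower: Cldn3, Cldn4, Cldn5, Cldn8, Cldn9, Cldn10, Cldn23 and Jam3, against 26.3% of all genes.

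**Figure D2:**
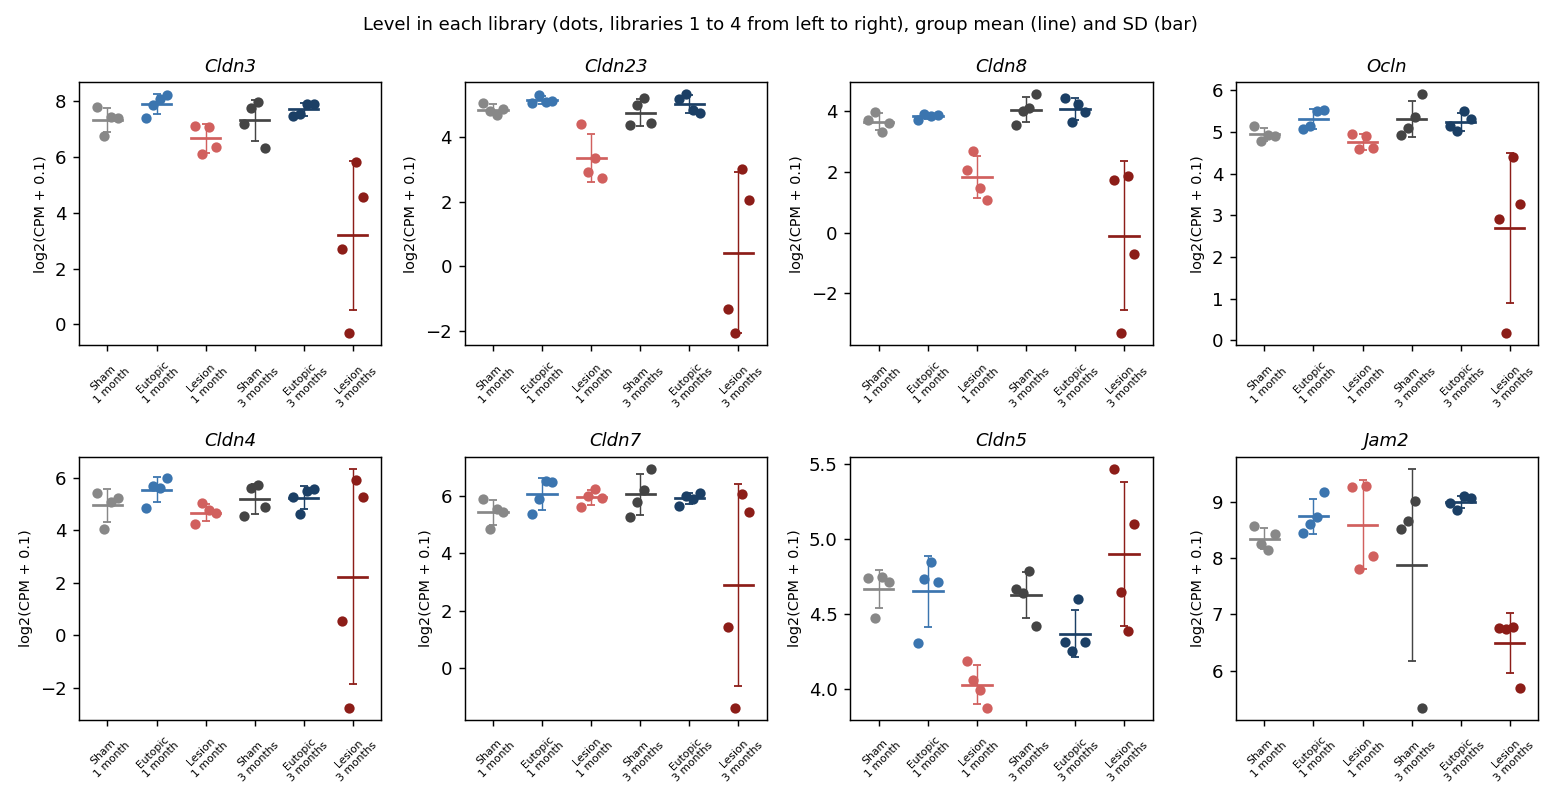
Level of 8 genes in each library, as log2(CPM + 0.1) on the vertical axis, by group on the horizontal axis, with dots for libraries 1 to 4, a line for the group mean and a bar for the SD. Cldn3, Cldn23, Cldn8, Ocln and Jam2 are below eutopic uterus in all 4 lesions at 3 months. Cldn4 and Cldn7 are far below it in 3-month lesion libraries 1 and 2 only, with Cldn7 in library 4 just under the eutopic range. Cldn5 is lower in all 4 lesions at 1 month and above all eutopic libraries in 3 of 4 lesions at 3 months.

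At 3 months lesions differed from eutopic uterus in 15 of the 29 tested genes, 12 lower and 3 higher (51.7% called, against 40.5% of all genes; for lower calls 17.1% and for higher calls 23.4% of all genes). The median log2 fold change of the 29 was -0.64, against 0.04 over all genes. By role, 3 of 7 tested barrier claudins fell and 1 rose, 2 of 4 other membrane proteins fell, 2 of 3 junctional adhesion molecules fell, and 1 of 3 channel claudins and 1 of 3 remaining claudins fell. The endothelial Cldn5 and the myelin claudin Cldn11 rose, and neither of the polarity genes Pard3 and Pard6b was called. Over the same contrast, epithelial markers had a median of -0.86, with 1 of 10 called lower. Markers of other cells moved too: 4 of 5 smooth muscle markers fell (median -1.49), 4 of 7 markers of uterine stroma and fibroblasts fell (median -0.98), and all 4 leukocyte markers rose (median 2.79). The part of these markers in the members' values was not tested.

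Among barrier claudins, Cldn3 stood at 176, 187, 237 and 240.5 CPM in eutopic uterus and at 6.41, 0.698, 56.2 and 23.73 CPM in lesions. All lesions lay below all uteri, including libraries 3 and 4, whose epithelial marker sums were at the uterine level. The log2 fold change was -3.27 ± 0.71 (SE), with adjusted p = 0.00127 in edgeR's quasi-likelihood test. Cldn8 was 21.7, 12.3, 18.7 and 15.7 CPM against 3.24, 0, 3.57 and 0.507 CPM, a log2 fold change of -3.21 ± 0.72 (adjusted p = 0.00151 in edgeR). Cldn9, a claudin known from inner ear and liver, was low throughout, at 0.559, 0.955, 1.04 and 1.28 CPM in eutopic uterus and 0.0559, 0.0466, 0.0397 and 0.0423 CPM in lesions (-4.31 ± 0.77, adjusted p = 0.000242 in edgeR). Its lesion value rests on 9 counts over 4 libraries. Outside the barrier group, Cldn23 stood at 35.7, 39.9, 28.2 and 26.8 CPM in eutopic uterus and at 0.298, 0.140, 7.98 and 4.06 CPM in lesions, again without overlap (-3.38 ± 0.72, adjusted p = 0.000997 in edgeR).

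Cldn4, Cldn7 and Cldn1 showed another layout. Cldn4 was 38.6, 24.7, 45.6 and 47.4 CPM in eutopic uterus and 1.34, 0.0466, 60.2 and 38.7 CPM in lesions. Cldn7 was 50.5, 63.7, 59.5 and 69.5 CPM against 2.59, 0.279, 66.7 and 43.9 CPM. Both were low in lesion libraries 1 and 2, where epithelial markers were low, and at or near the uterine range in libraries 3 and 4. Cldn4 had a log2 fold change of -0.64 ± 0.87 and Cldn7 of -1.10 ± 0.79, neither called in edgeR (adjusted p = 0.584 and 0.278). Cldn1 was 49.1, 40.3, 35.6 and 55.1 CPM against 19.2, 6.89, 77.6 and 23.01 CPM, with lesion library 3 above all uteri (-0.51 ± 0.44, adjusted p = 0.38 in edgeR). Without lesion library 3, Cldn1 was called at -1.46 (adjusted p = 0.00237 in edgeR). Without 1-month lesion library 2 and 3-month lesion libraries 1 and 2, Cldn4 and Cldn1 turned to 0.34 and 0.16 and Cldn7 stood at -0.14, while Cldn3, Cldn8, Cldn9 and Cldn23 were still called, at -2.40, -3.07, -4.48 and -2.44.

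Occludin, the first transmembrane protein described in tight junctions, fell with the Cldn3 group. Ocln was 35.2, 32.2, 45.4 and 39.4 CPM in eutopic uterus and 7.47, 1.02, 21.03 and 9.61 CPM in lesions, with a log2 fold change of -1.96 ± 0.46 (adjusted p = 0.00231 in edgeR). It was below every uterus in all 4 lesions and was called without the 3 libraries too, at -1.31. Tricellulin (Marveld2), which seals the corners where 3 cells meet, fell by 0.91 ± 0.35 on the log2 scale, but lesion library 3, at 17.5 CPM, lay within the range of uterus, whose highest value was 17.9 CPM, and without the 3 libraries its value was -0.27 with no call. Leaving out any 1 of the 8 compared libraries other than lesion library 3 also ended the Marveld2 call, at adjusted p between 0.0512 and 0.120 in edgeR. Marveld3, of the same family, stood at -1.23 ± 0.50 (adjusted p = 0.0539 in edgeR), and was low in lesion libraries 1 and 2 (1.47 and 0.559 CPM) and not in library 3 (8.95 CPM, uterus 7.78 to 10.9). Without library 3 Marveld3 was called at -1.96 (adjusted p = 0.00349 in edgeR). Lsr, the lipoprotein receptor that recruits tricellulin to those corners, was 58.98, 17.2, 43.3 and 43.0 CPM in lesions and 39.9 to 41.6 CPM in uterus. Of the annotated exon length of Lsr 44.7% overlaps antisense genes in GENCODE M21, and without stated use of strand their reads cannot be told apart from those of Lsr.

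The junctional adhesion molecules did not move together. Jam2, found on endothelium and other cells, was 502, 462, 547 and 534 CPM in eutopic uterus at 3 months and 108, 107, 109.7 and 51.5 CPM in lesions. The groups lay far apart, with a log2 fold change of -2.44 ± 0.48 (adjusted p = 0.000591 in edgeR), and without the 3 libraries it was -2.67. Low Jam2 was not particular to lesions: 3-month sham library 4 lay below each of these lesions. At 1 month Jam2 had been 347, 387, 425 and 578 CPM in eutopic uterus and 610.4, 224, 620.4 and 261 CPM in lesions, so that lesions held both the highest and the lowest values. Jam3 was 62.4, 82.9, 69.6 and 64.0 CPM in eutopic uterus and 61.5, 35.7, 33.4 and 31.9 CPM in lesions at 3 months (-0.78 ± 0.17, adjusted p = 0.00163 in edgeR). Of its annotated exon length 36.2% overlaps an antisense gene in GENCODE M21; whether counting used strand is not stated, and reads of both genes cannot be told apart. F11r, the junctional adhesion molecule A of epithelium, endothelium, platelets and leukocytes, was 90.5, 76.0, 115 and 139.5 CPM in lesions and 94.5 to 113 CPM in uterus, a log2 fold change of 0.01 ± 0.18.

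Among scaffolds, Cgnl1 fell by 0.71 ± 0.17 and Cgn by 0.91 ± 0.25 on the log2 scale, with adjusted p of 0.00242 and 0.00756 in edgeR. Both were lower in all 4 lesions than in all 4 uteri, and without the 3 libraries they were called at -0.51 and -0.75. Tjp1 was 262, 139, 155 and 106 CPM against 162 to 237 CPM in uterus, and was not called (-0.27). Without lesion library 1, Tjp1 was called at -0.62 and the polarity gene Pard3, at -0.21 with all libraries, at -0.52 (adjusted p = 0.0422 and 0.0427 in edgeR). Tjp3 stood at 2.01 and 4.49 CPM in libraries 1 and 2 and at 36.7 and 26.4 CPM in libraries 3 and 4, against 16.4 to 23.02 CPM in uterus. The channel claudin Cldn10 fell from 30.8 to 51.8 CPM in uterus to 3.08, 10.5, 28.4 and 13.9 CPM in lesions (-1.49 ± 0.45, adjusted p = 0.0115 in edgeR), and stood at -0.90 without a call when the 3 libraries were left out.

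Cldn5, Cldn6 and Cldn11 rose in the 3-month lesions. Cldn5 was 19.8, 18.9, 24.1 and 19.7 CPM in eutopic uterus and 44.2, 24.9, 20.7 and 34.2 CPM in lesions, where library 3 lay within the uterine range (0.59 ± 0.18, adjusted p = 0.0113 in edgeR). Without lesion library 1 it stood at 0.37, with adjusted p = 0.054. Of 8 endothelial markers 3 fell and none rose at 3 months, and their summed level was 419 to 742 CPM in lesions and 618 to 875 CPM in uterus; their part in the Cldn5 value was not tested. Cldn11, the claudin of myelin and Sertoli cells, was 9.32 CPM in lesion library 1 and 0.933 to 1.35 CPM in the other lesions, against 0.791 to 1.29 CPM in uterus, and its log2 fold change of 1.64 ± 0.65 was 0.16 without that library. The Cldn11 call was also lost without any 1 eutopic library, at adjusted p of 0.0643 to 0.106 in edgeR. Cldn6, a claudin of embryonic epithelium, had 53 counts in lesions and 1 in eutopic uterus, a ratio of 56.8 with a 95% counting interval of 9.76 to 2285. Cldn6 had enough counts to be tested only when lesions were in the fit, and its adjusted p was 0.0472 in edgeR. That call was lost in 9 of the 14 alternatives that tested it, among them DESeq2, limma voom, the replicate block, no filter on low counts, and leaving out lesion library 3 or any 1 eutopic library. Nearly all of the Cldn6 signal came from lesion library 3 (0.953 CPM, the others 0 to 0.0932), and at 1 month lesion library 2 alone reached 1.43 CPM.

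**Figure D3:**
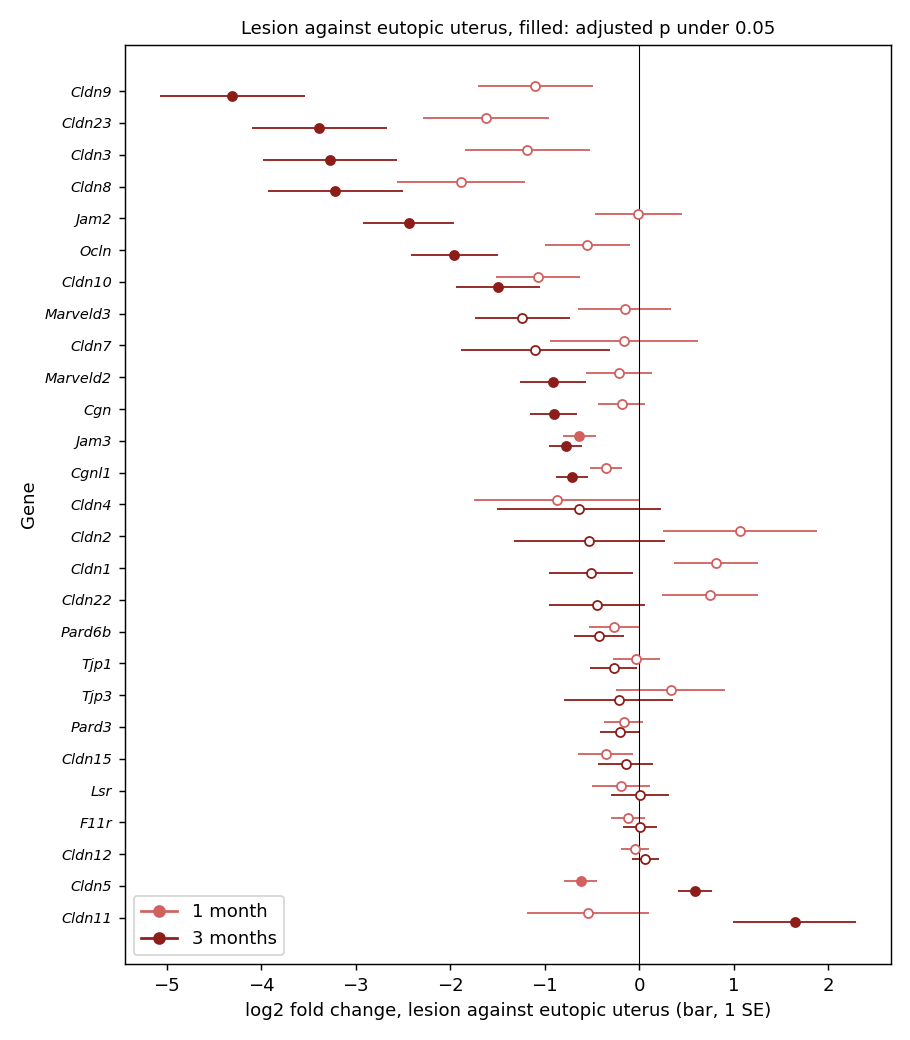
Log2 fold change of lesion against eutopic uterus (horizontal axis, bar 1 SE) at 1 month (light) and 3 months (dark) for 27 of the 29 tested genes, Cldn6 being left out because its eutopic count was 1; filled points had an adjusted p under 0.05. At 3 months Cldn9, Cldn23, Cldn3, Cldn8, Jam2 and Ocln lie furthest to the left and Cldn5 and Cldn11 to the right of 0.

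When the fit at 3 months held only the 8 compared libraries, 2 of 28 genes were called, Jam2 and Cldn9, against 16.3% of all genes. Limma voom called 10, all among the 15, against 37.6% of all genes. Without 1-month lesion library 2 and 3-month lesion libraries 1 and 2, 11 of 30 were called against 40.4% of all genes, 10 of them among the 15: Cldn3, Cldn6, Cldn8, Cldn9, Cldn23, Ocln, Cgn, Cgnl1, Jam2 and Jam3. The remaining one was Cldn19, which the main fit did not test.

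Among 3-month lesions, Cldn3 lay apart from Cldn4 and Cldn7, relative to epithelial markers, in libraries 3 and 4. In libraries 1 and 2 all of them lay below eutopic uterus. On the log2 scale, Cldn3 minus the mean of the 10 epithelial markers was 1.57, 1.73 and 1.58 in eutopic libraries 1, 2 and 4, with library 3 close below them, and was 1.06, -0.47, 0.71 and -0.04 in lesions at 1 month. At 3 months it was 1.04, 1.42, 1.58 and 1.57 in eutopic uterus and -0.90, -1.98, -0.89 and -1.65 in lesions, without overlap at either time. Cldn23 gave -1.27, -0.80, -1.496 and -1.60 in eutopic uterus at 3 months and -5.16, -4.04, -3.70 and -4.19 in lesions. Both genes were thus below eutopic uterus in all 4 lesions at 3 months, relative to these markers. In contrast, Cldn7 gave -0.77, -0.13, -0.42 and -0.22 in eutopic uterus and -0.64 and -0.76 in lesion libraries 3 and 4, with -2.19 and -3.19 in libraries 1 and 2. Cldn4 gave -1.15, -1.496, -0.80 and -0.77 in eutopic uterus and -0.79 and -0.95 in lesion libraries 3 and 4, with -3.12 and -5.12 in libraries 1 and 2. Using 3 markers (Epcam, Krt8 and Krt18) in place of 10, the difference of lesions from eutopic uterus was -0.85 for Cldn3 at 1 month and -2.53 at 3 months, where 10 markers gave -1.28 and -2.75. Over all 29 tested genes the median of this difference at 3 months was 0.83 with 10 markers and 1.06 with 3. That median takes in lesion libraries 1 and 2, where Tjp1 gave 4.45 and 5.58 and F11r 2.92 and 4.72. In libraries 3 and 4 Tjp1 gave 0.57 and 0.50, below eutopic uterus (1.00 to 1.58), and Cgn, Jam3 and Ocln lay below it too. F11r, at 0.14 and 0.90 there, did not (eutopic uterus, 0.14 to 0.51). A place below eutopic uterus in libraries 3 and 4 was thus not particular to Cldn3 and Cldn23. In 3-month sham library 4, where no lesion tissue is labelled, Cldn3 gave -1.29 and Cldn23 -3.18, near the lesion values and away from the other 3 sham libraries (1.29 to 1.41 for Cldn3). These values are descriptions with no test, and the share of other cell types in each library was not removed from them.

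**Figure D4:**
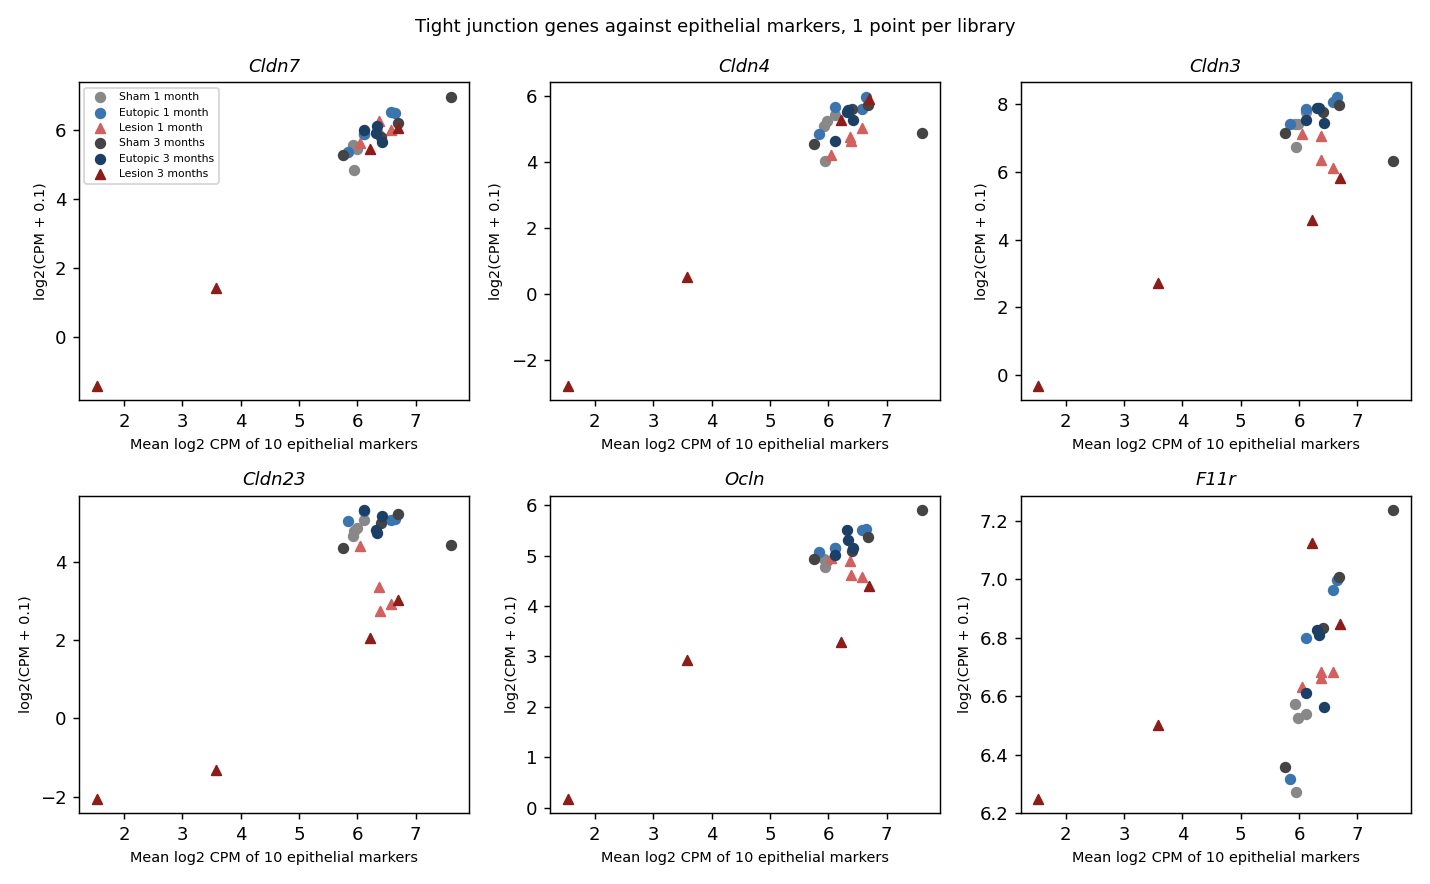
Log2(CPM + 0.1) of 6 genes (vertical axes) against the mean log2 CPM of 10 epithelial markers (horizontal axes), with 1 point per library, circles for uterus and triangles for lesions. In 3-month lesion libraries 3 and 4, whose epithelial level is in the uterine range, Cldn7 and Cldn4 lie among the points of uterus while Cldn3, Cldn23 and Ocln lie below them; F11r spans a narrow axis, 75.95 to 151 CPM over all libraries.

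Whether the lesion difference itself changed with time was tested with an interaction term over the 4 groups. Of 29 genes 1 was called, Cldn5 (3.45%, against 0.769% of all genes): its lesion difference was 1.21 ± 0.25 higher on the log2 scale at 3 months than at 1 month (adjusted p = 0.0334 in edgeR's quasi-likelihood test). All 4 lesions at 3 months (20.7 to 44.2 CPM) lay above all 4 at 1 month (14.5 to 18.1 CPM). In edgeR this call was lost, with adjusted p between 0.055 and 0.080, when 1-month lesion library 1, 3 or 4, 1-month eutopic library 2, 3 or 4, or any 3-month eutopic library was left out, and it stood at 0.14 when the fit held the 4 compared groups alone. Jam2 (-2.43 ± 0.66, adjusted p = 0.0833 in edgeR) and Cldn9 (-3.21 ± 0.97, adjusted p = 0.114) did not pass in edgeR and were called by DESeq2.

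Lesions of both times were also compared directly, with the same lesion libraries as above, and 7 of 29 genes were called (24.1%, against 10.9% of all genes), 2 higher and 5 lower (6.52% and 4.43% of all genes). Cldn5 rose by 0.92 ± 0.18 on the log2 scale (adjusted p = 0.00315 in edgeR) and Cldn11 by 2.21 ± 0.66, the latter resting on 3-month lesion library 1 (0.73 without it). Cldn9, Jam2, Cldn3 and Ocln had log2 fold changes of -3.74, -2.19, -2.29 and -1.48. For these 4 genes every 3-month lesion lay below every 1-month lesion. The share of all genes that lay apart in this way was not counted, and 5768 of 22249 had an unadjusted p under 0.05 in edgeR. With the 3 libraries left out, Cldn5, Jam2 and Cldn3 kept their calls and Jam3 was added (4 of 30, against 11% of all genes), limma voom called Cldn5 and Jam2 (2 of 29, against 4.54% of all genes), and when the fit held the 8 lesion libraries alone none of the 19979 genes tested was called. The count was 13 without 3-month lesion library 3 and 3 without 1-month lesion library 1 or 3.

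A list of 48 other tight junction and junction-related genes was examined in the same fits; 4 of them (Cdh1, Elf3, Esrp1 and Spint1) are also epithelial markers here. In eutopic against sham uterus none of 47 tested was called at either time, with 1 and 3 genes at an unadjusted p under 0.05 in edgeR, and none by DESeq2 or limma voom. At 1 month, lesions had 3 higher and 1 lower of 48 (8.33% called, against 20.7% of all genes; for higher calls 12% and for lower calls 8.76% of all genes). Ildr2, a tricellular junction relative of Lsr, rose from 10.9 ± 3.85 CPM to 79.5 ± 25.8 CPM (SD, n = 4), a log2 fold change of 2.87 ± 0.39 (adjusted p = 0.000239 in edgeR). Nectin1, an adherens junction adhesion molecule, rose by 0.74 and Scrib, a basolateral polarity protein, by 0.31, while Esam fell. Ildr2 and Esam were called whichever 1 of the 8 compared libraries was left out, whereas Nectin1 and Scrib lost their calls without any 1 of them, with adjusted p of 0.0507 to 0.115 and 0.0515 to 0.159 in edgeR.

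At 3 months 17 of the 48 were called in lesions, 5 higher and 12 lower (35.4% called, against 40.5% of all genes; for higher calls 23.4% and for lower calls 17.1% of all genes). Ildr2 rose again, from 9.11 ± 1.80 to 115 ± 72.7 CPM (3.66 ± 0.40, adjusted p = 3.27e-06 in edgeR), and all 4 lesions lay above all 4 uteri. Nectin1, Sympk (the polyadenylation factor symplekin), Ybx3 (a Tjp1-binding transcription factor) and Amotl2 (angiomotin-like) rose by 1.15, 0.37, 0.68 and 0.59. Ildr1, the epithelial relative of Ildr2, went the other way, falling from 32.3 to 8.64 CPM (-1.90 ± 0.50, adjusted p = 0.005 in edgeR). The Crumbs complex scaffold Patj fell by 1.37, the polarity protein Llgl2 by 0.96, the membrane protease Prss8 by 2.47 and Esam by 0.79 on the log2 scale. Grhl2, the grainyhead factor of epithelia and named here after its values were seen, fell from 38.4 to 9.40 CPM (-2.03 ± 0.67, adjusted p = 0.021 in edgeR) and stood at -1.17 with a call when the 3 libraries were left out. Without those libraries Ildr2 stood at 3.42, Ildr1 at -1.09, Patj at -1.21, Llgl2 at -0.76, Prss8 at -1.71, Esam at -1.04, Nectin1 at 0.62 and Ybx3 at 0.44, all still called, whereas Sympk and Amotl2 were not. The Ybx3 call rested on single libraries: it stood at 0.21 without 3-month lesion library 2, and lost its call, at 0.62 to 0.71, without lesion library 3 or any 1 eutopic library. Amotl2 lost its call without lesion library 2 (0.47) or eutopic library 3 or 4 (0.56 and 0.49). Between lesions of both times, Ybx3 rose by 0.84 and Patj, Prss8 and Llgl2 fell by 1.22, 1.94 and 0.69, and no partner was called for the interaction, where 6 had an unadjusted p under 0.05 in edgeR.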

How the data were processed

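RNA sequencing counts of 24 mouse libraries were used. The table deposited by the authors holds whole-number read counts per gene, with no normalization. Per the submitters' processing notes, bcl2fastq 1.9.0, STAR 2.7.9a, edgeR and genome build mm39 were used; for the counting tool, annotation release and strandedness, nothing is given in the sources used here. Counts of genes that share exons or near-identical sequence are therefore uncertain, Cldn22 most of all, whose whole exon length lies within an antisense overlap with Wwc2 in GENCODE M21 on GRCm38.

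From the counts, edgeR 4.0.16 (R 4.3.3, TMM scaling, filterByExpr, quasi-likelihood test, Benjamini-Hochberg adjustment over all tested genes, called under 0.05) gave the results. Eutopic against sham was fitted on the 16 uterine libraries and lesion comparisons on all 24. The filter on low counts passes genes high in 1 group only, so the 29 tested genes are not all 36. Of the 29, 1 is in every fit and count but is not reported here by name or value. Relative values used log2 CPM with a prior count of 2. Where groups are said not to overlap, the share of all genes that did so was not counted. Lengths per kb are GENCODE M21 exon lengths. Alternatives were DESeq2 1.42.0, DESeq2 size factors in edgeR, limma 3.58.1 voom with sample weights, no filter, other sets of libraries in the fit, the replicate number as a block and leaving out libraries. The pipeline was tested on simulated data. Total counts per library, 45133642 to 59407134, limit the precision of the lowest genes, and intervals and floors cover counting error only.

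The genes, lists and tests were chosen with earlier results of these data known. Genes named are all called members but that 1, 8 preset genes and those with the smallest p in eutopic against sham, and up to 5 called partners per direction; values per library are given for 6 preset claudins, the 4 smallest-p members of each lesion comparison, and some others for context.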

Additional observations from a re-analysis of the deposited data

Results flagged for a closer look

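In groups of 4 libraries, the level of a gene in 1 library stood apart from the other 3 in 16 of 168 checks. The check is set to flag about 1 in 20 for independent, normally spread values. Genes of the same library are not independent, and a gene near 0 can be flagged on a single count. The 16 therefore cannot be read as more than that rate. Sham library 4 at 3 months accounted for 5 of the 16. It was low for Cldn11 (0.438 CPM, the others 1.09 to 1.21) and Jam3 (49.3, the others 64.8 to 67.5), and high for Cgnl1 (359 CPM, the others 229 to 242), Tjp3 (65.8, the others 15.8 to 22.8) and Cldn6 (0.403, the others 0 to 0.0523). Its epithelial marker sum of 2327 CPM was the highest of all uterine libraries; the part of this in the 5 values was not tested.

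In 3-month lesions, library 1 was high for Cldn11 (9.32 CPM, the others 0.933 to 1.35) and Jam3 (61.5, the others 31.9 to 35.7), library 3 was high for Cldn6 (0.953, the others 0 to 0.0932) and library 4 was low for Jam2 (51.5, the others 107 to 109.7). In 1-month lesions, library 2 was high for Cldn6 (1.43 CPM, the others 0.0358 to 0.0700) and Cldn9 (1.97, the others 0.0716 to 0.315). In sham uterus at 1 month, library 2 was low for F11r (77.2, the others 92.1 to 95.1) and Cldn5 (22.1, the others 26.1 to 26.7), and library 4 was high for Cldn15 (13.3, the others 9.70 to 10.1). In eutopic uterus at 3 months, library 3 was high for Cldn5 (24.1, the others 18.9 to 19.8) and library 4 for Cldn6 (0.0178, the others 0, a single count).

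The lesion difference of Cldn5 changed between the times by 1.21 on the log2 scale, by an interaction test in edgeR. Its lesion values lay below eutopic uterus in 4 of 4 libraries at 1 month, and at 3 months 3 of 4 lay above all eutopic libraries.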

How the results depend on the processing

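Eutopic against sham gave no called gene, of the 36 or the 48 partners, under any alternative. Over 75 gene results (called genes, genes named throughout and some uncalled ones) and 1172 alternative values, 937 kept direction and call, 165 lost the call, 41 gained it and 29 changed sign, 27 of these in eutopic against sham, where no value was called. Among uncalled values outside these 75, lesion against eutopic changed sign in 7 of 16 alternatives for F11r and for Lsr and in 4 for Tjp3 at 3 months, and in 4 for Jam2 at 1 month. When the fit held the compared groups alone, called members went from 2 to 11 (lesion against eutopic, 1 month), 15 to 2 (3 months), 1 to 0 (interaction) and 7 to 0 (lesions over time), and partners from 4 to 12, 17 to 4 and, over time, 4 to 0. Under limma voom, members went to 11 at 1 month and 2 over time, and partners to 15, 1 (interaction, from 0) and 2 over time. DESeq2 gave 3 members for the interaction, and 7, 1 and 8 partners at 1 month, for the interaction and over time. Without a filter, members went to 4 over time, and partners to 2 at 1 month and 2 over time. Without 1-month lesion library 2 and 3-month lesion libraries 1 and 2, members went to 8 at 1 month and 4 over time, and partners to 8 and, for the interaction, 3. Leaving out 1 library at a time gave 0 to 2, 13 to 16, 0 to 5 and 3 to 13 members in these 4 comparisons, and 2 to 4, 12 to 20, 0 to 3 and 1 to 11 partners; the highest interaction and time counts came without 3-month lesion library 3. The causes of these moves were not tested beyond the samples left out. Besides the main fit, shares of all genes called were taken for limma voom, the compared groups alone and the 3 libraries left out, and not for the interaction. Under the other alternatives, among them DESeq2 and the replicate block, counts of members and partners cannot be set against all genes.

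The labels share replicate numbers but do not say that they pair samples. Same-numbered lesion and eutopic libraries had correlations of 0.073 to 0.19 at 1 month and 0.0037 to 0.336 at 3 months. At these times 4 of 4 and 3 of 4 lesions correlated best with their own number. In eutopic against sham this held only for number 3 at 1 month and number 2 at 3 months. The main tests took no account of a possible pairing, and whether same-numbered lesion and uterus came from the same mouse was not tested. With the replicate block 2 members were called at 1 month. At 3 months 14 were called, 1 higher and 13 lower, of which 13 were among the 15: Cldn6 and Cldn11 lost their calls and Marveld3 gained one. The block gave 1 partner for the interaction. The block in a fit of the compared groups alone, added after seeing the data, gave 11 and 2 members and 13 and 2 partners.

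The median of the 29 genes against epithelial markers, lesion minus eutopic at 1 month, was -0.24 with 10 markers and 0.19 with Epcam, Krt8 and Krt18; at 3 months it was 0.83 and 1.06. Sign changes in eutopic against sham, none of them called, were at 1 month Cldn5 0.0308 and Cldn1 -0.0822 (voom) and Cldn1 -0.0105 (replicate block); leaving out 1 library gave -0.0725 to 0.0995 for Cldn5, -0.274 to 0.224 for Cldn1 and -0.244 to 0.00509 for Tjp1. At 3 months they were Cldn4 -0.207, Tjp1 0.296 and Ocln 0.0764 (voom) and Cldn4 -0.00579 and Tjp1 0.00302 (replicate block); leaving out 1 library gave -0.156 to 0.211 for Cldn4, -0.131 to 0.168 for Tjp1, and, highest without sham library 4, -0.241 to 0.121 for Ocln, -0.838 to 0.0692 for Tjp3 and -0.484 to 0.118 for Cldn7. In lesions at 3 months without the 3 libraries, Cldn4 became 0.34 and Cldn1 0.16. Few counts limit the precision of Cldn6, Cldn9, Cldn18 and Cldn19.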
